A study of Mus musculus with 6 samples.

Results

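The TREM and CD300 receptors are immunoglobulin-type surface receptors of myeloid cells, and 9 genes were followed here: Trem1, Trem2, Treml2, Treml4, Cd300a, Cd300lb, Cd300ld and Cd300lf, together with Tyrobp, which encodes DAP12, the adaptor of many of them. They were chosen by name as receptors of these families and this adaptor, and make up 9 of the 55401 genes in the deposited tables. Like the gene lists used below, they were chosen with earlier results of these data known. RNA was sequenced from brain cells selected magnetically for CD11b, an integrin that microglia share with other myeloid cells. The cells came from untreated MRL/lpr and MRL/mpj mice aged 6 weeks, with 3 libraries per strain. The lpr mutation, which impairs the death receptor gene Fas, is carried by MRL/lpr mice, which develop a lupus-like disease, whereas MRL/mpj mice share the background without it. The mutation is carried in every cell, so the comparison does not separate events in microglia from events elsewhere in the animal. The methods describe female mice, and the labels give no sex. The study counts its replicates in mice, and neither its methods nor the labels say whether a library held pooled animals, so the p-values measure the spread between these libraries.

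As background, several TREM receptors have short tails and signal through DAP12, whose ITAM motif recruits the kinase Syk once phosphorylated. TREM2 binds lipids and apolipoproteins and is known in microglia for its part in phagocytosis and in the response to amyloid, while TREM1 is known for amplifying inflammation in neutrophils and monocytes. The CD300 family holds paired receptors. CD300a and CD300f (the product of Cd300lf) carry ITIM motifs that recruit phosphatases, and several members recognise lipids of dying cells, such as phosphatidylserine, whereas others signal through DAP12 or the Fc receptor gamma chain.

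Total counts ran from 45481609 to 49846634 per library, and counts piled up at multiples of 4, so a low count rests on fewer read pairs than its size gives. Fas itself ranged over 282 to 461 counts in MRL/lpr and 362 to 432 counts in MRL/mpj libraries, and gene counts cannot tell its mutant transcripts from intact ones, so they are no check of the labels. Xist, the RNA of the inactive X chromosome, ranged over 8886 to 11319 counts in MRL/lpr but 27 to 38 counts in MRL/mpj libraries, while the Y-linked gene Ddx3y was read in both strains, with 3690 to 5720 and 5505 to 7559 counts. Strain therefore cannot be told apart from the sex makeup of the RNA. The mitochondrial share of counts was 3.06% to 3.49% in MRL/lpr and 5.84% to 6.38% in MRL/mpj libraries. Single genes jumped in 1 library, such as CT010467.1 with 2902393 counts in MRL/lpr replicate 3 and Cx3cr1 with 132706 in MRL/lpr replicate 2. With counts divided by 4, and with TMM factors that leave aside mitochondrial genes and the 20 of highest count, the number of receptor genes called stayed at 3.

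The promoters of 4 receptor genes are shown because these genes are the most abundant receptors (Trem2, Cd300lf, Cd300a) or a rarer CD300 gene (Cd300ld), and because 2 of them rose in MRL/lpr libraries and 2 did not pass the test. Each run is the 250 bases before the RefSeq start on GRCm38.p6, written 5′ to 3′ on the gene's strand, with matches to the motifs below in capitals.
Trem2, chr17:48346151-48346400, plus strand: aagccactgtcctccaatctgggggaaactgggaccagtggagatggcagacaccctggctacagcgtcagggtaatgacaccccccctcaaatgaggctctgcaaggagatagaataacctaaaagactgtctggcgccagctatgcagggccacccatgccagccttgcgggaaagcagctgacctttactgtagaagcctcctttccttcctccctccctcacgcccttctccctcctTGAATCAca
Cd300lf, chr11:115133993-115134242, minus strand: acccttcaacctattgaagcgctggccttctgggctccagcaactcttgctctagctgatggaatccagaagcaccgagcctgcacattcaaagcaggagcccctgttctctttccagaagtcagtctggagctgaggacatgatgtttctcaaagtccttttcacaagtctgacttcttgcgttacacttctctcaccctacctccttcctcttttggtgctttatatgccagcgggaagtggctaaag
Cd300a, chr11:114889791-114890040, plus strand: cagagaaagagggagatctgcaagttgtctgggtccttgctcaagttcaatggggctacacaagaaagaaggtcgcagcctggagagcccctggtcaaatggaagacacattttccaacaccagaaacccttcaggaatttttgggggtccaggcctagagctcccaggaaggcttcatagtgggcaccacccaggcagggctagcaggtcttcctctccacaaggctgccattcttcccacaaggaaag
Cd300ld, chr11:114989887-114990136, minus strand: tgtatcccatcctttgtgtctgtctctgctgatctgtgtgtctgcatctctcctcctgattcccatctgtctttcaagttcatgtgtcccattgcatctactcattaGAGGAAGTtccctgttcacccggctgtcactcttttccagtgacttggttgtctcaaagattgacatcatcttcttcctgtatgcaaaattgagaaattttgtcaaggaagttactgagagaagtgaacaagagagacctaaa

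RefSeq promoters matched 7 of the 9 genes. Both strands of each were searched for 4 motifs, among them GAGGAAGT (a PU.1 site) and TGANTCA (a loose AP-1 pattern, with any base at its centre). The others were TTCNNNGAA (a gamma-activated site, bound by STAT factors) and an interferon-stimulated response element (GAAA and again GAAA, parted by NN). No matches overlapped. The PU.1 letters stood in the Cd300ld promoter, 143 to 136 bases before the start, and in 2.44% of all 32851 promoters. The loose AP-1 pattern was met in the Trem2 promoter as TGAATCA, with A at its centre, 9 to 3 bases before the start. It was met in 6.75% of all promoters, whatever the base at its centre. Trem1 held the gamma-activated letters, found in 7.02% of all promoters, and none of the 7 held the interferon-stimulated letters, found in 2.98%. The Cd300lf and Cd300a windows held none of the 4 motifs. A match describes the letters in a window and not a bound site.

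Within the receptor set, Cd300lf and Cd300ld were upregulated in MRL/lpr libraries, 3.39-fold and 2.72-fold, and Treml2 was downregulated, at 2.12 times its MRL/lpr level in MRL/mpj libraries. Transcripts of Cd300ld and of the far more abundant Cd300lf share some sequence. How far Cd300lf reads entered the Cd300ld counts was not tested. Tyrobp was 1.27 times as high in MRL/mpj as in MRL/lpr libraries, and Trem1 was 1.33-fold higher in MRL/lpr libraries. Trem2, the most abundant receptor of the set, had a log2 fold change of 0.03. All 9 genes passed the filter on low counts, and the quasi-likelihood test of edgeR, adjusted over all 19554 tested genes by the Benjamini-Hochberg method, called 2 of them upregulated and 1 downregulated (|log2FC|≥1 with an adjusted p under 0.05). Across all tested genes, 8.34% were called by that rule, 4.67% upwards and 3.66% downwards. By the adjusted p alone, 3 of the 9 passed upwards and 2 downwards, where 11.1% and 9.06% of all tested genes did. The CPM (a gene's counts scaled to a fixed library total, with TMM normalization) of the strains did not overlap for 7 of the 9 genes, against 39% of all tested genes. A stricter test against the fold minimum itself, glmTreat of edgeR, called Cd300lf and no other of the 9 genes, and 616 of all genes in place of 1630. The median log2 fold change was 0.23 over the 9 genes and -0.01 over all tested genes. In bulk RNA, fewer cells of a type and less RNA per cell cannot be told apart.

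**Figure D1:**
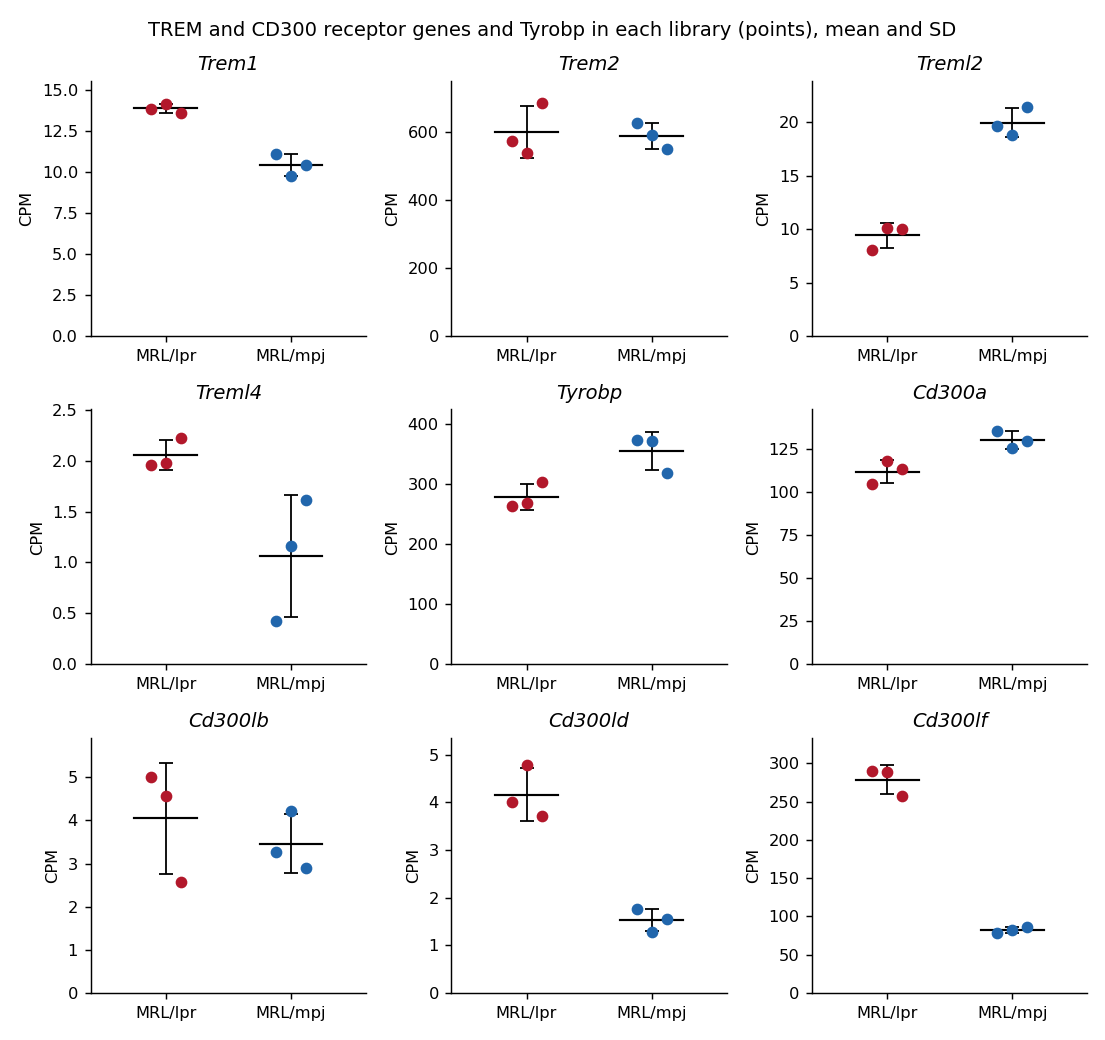
CPM (TMM-scaled, linear axes from 0) of the 9 genes in the 3 MRL/lpr libraries (red points) and the 3 MRL/mpj libraries (blue points), with the mean and SD of each strain as bars. The Cd300lf points sit between 257 and 291 CPM in MRL/lpr and between 78.6 and 86.8 CPM in MRL/mpj libraries, whereas the Trem2 points of the strains overlap.

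Among the TREM receptors, Trem2 (ENSMUSG00000023992, chr17:48346401-48354147, plus strand, GRCm38) had 27055, 25385 and 28720 counts in MRL/lpr against 32246, 29553 and 28675 in MRL/mpj libraries. The strains overlapped in counts and in CPM. Mean levels were 601 ± 77.1 CPM (SD, n = 3) and 590 ± 38.2 CPM (SD, n = 3). The strain difference was 0.03 on the log2 scale (SE 0.09, 95% confidence interval -0.19 to 0.24, edgeR adjusted p = 0.889), and its sign changed with the scaling and with the libraries used. Trem2 ranked 188th of the tested genes by mean CPM.

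Treml2 (ENSMUSG00000071068, chr17:48299498-48312533), a TREM-like receptor described on B cells, T cells and neutrophils, had 380, 476 and 420 counts in MRL/lpr against 1011, 941 and 1115 in MRL/mpj libraries. Every MRL/mpj library lay above every MRL/lpr library. Levels were 9.42 ± 1.15 CPM (SD, n = 3) in MRL/lpr and 19.97 ± 1.33 CPM (SD, n = 3) in MRL/mpj libraries, a log2 fold change of -1.09 (SE 0.13, 95% confidence interval -1.38 to -0.79, edgeR adjusted p = 0.000399). Without MRL/lpr replicate 1 the log2 fold change was -0.98 (adjusted p = 0.00162), short of the fold minimum. Over all alternatives its adjusted p ran from 7.87e-10 to 1, the latter under glmTreat.

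Trem1 (ENSMUSG00000042265, chr17:48232768-48246924) had 651, 667 and 568 counts in MRL/lpr and 569, 488 and 543 counts in MRL/mpj libraries. After scaling, its 13.6 to 14.2 CPM in MRL/lpr libraries did not overlap the 9.76 to 11.1 CPM of the MRL/mpj libraries. The log2 fold change of 0.41 (SE 0.12, 95% confidence interval 0.14 to 0.68, edgeR adjusted p = 0.04) stayed above 0 in all 17 alternative analyses but missed the adjusted p threshold in 11 of them. Those 11 included leaving out MRL/lpr replicate 1 (adjusted p = 0.0949), MRL/lpr replicate 2 (0.107), MRL/mpj replicate 1 (0.0732), MRL/mpj replicate 2 (0.139) and MRL/mpj replicate 3 (0.106). Over all alternatives the adjusted p ran from 0.0292 to 1, again the latter under glmTreat.

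Treml4 (ENSMUSG00000051682, chr17:48264295-48275360), a receptor known for binding dead cells, was rare, with 92, 93 and 93 counts in MRL/lpr against 22, 58 and 84 in MRL/mpj libraries. The groups did not overlap, but the MRL/mpj libraries spread widely. Its log2 fold change of 0.94 (SE 0.45, 95% confidence interval -0.08 to 1.96, edgeR adjusted p = 0.193) did not pass the test.

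The adaptor gene Tyrobp (ENSMUSG00000030579, chr7:30413760-30417585, plus strand) had 12391, 12628 and 12701 counts in MRL/lpr against 19223, 18628 and 16581 in MRL/mpj libraries. All MRL/lpr libraries lay below all MRL/mpj libraries, also after scaling. Mean levels were 279 ± 22.1 CPM (SD, n = 3) and 355 ± 31.6 CPM (SD, n = 3), and the log2 fold change was -0.35 (SE 0.09, 95% confidence interval -0.54 to -0.16, edgeR adjusted p = 0.0177). The change was negative in all 17 alternatives and missed the adjusted p threshold in 6 of them, 4 of which left out a single library: MRL/lpr replicate 1 (adjusted p = 0.0704), MRL/lpr replicate 2 (0.0672), MRL/mpj replicate 1 (0.0794) or MRL/mpj replicate 2 (0.0833). The adjusted p of Tyrobp ran from 0.00236 to 1 over the alternatives. Of the neighbouring adaptor gene Hcst, which encodes DAP10 on the opposite strand 126 bp away, 138, 148 and 211 counts were read in MRL/lpr and 131, 189 and 139 counts in MRL/mpj libraries. Hcst did not pass the test (log2 fold change 0.30, SE 0.29, edgeR adjusted p = 0.533).

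Of the abundant ITIM receptors of the CD300 family, Cd300lf was upregulated and Cd300a did not pass the test. Cd300lf (ENSMUSG00000047798, chr11:115116214-115133992, minus strand) had 13670, 13585 and 10750 counts in MRL/lpr against 4038, 4087 and 4515 in MRL/mpj libraries. The lowest MRL/lpr library held more than the highest MRL/mpj library by a wide margin. Means were 279 ± 18.8 CPM (SD, n = 3) and 82.4 ± 4.14 CPM (SD, n = 3), with a log2 fold change of 1.76 (SE 0.08, 95% confidence interval 1.59 to 1.93, edgeR adjusted p = 9.22e-07). In the 17 alternatives the log2 fold change ran from 1.63 to 1.82, with an adjusted p of at most 0.000104. Of the tested genes, 6.04% had a larger absolute log2 fold change.

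Cd300a (ENSMUSG00000034652, chr11:114890041-114904654, plus strand), an inhibitory receptor for phosphatidylserine and phosphatidylethanolamine, had 4906, 5545 and 4727 counts in MRL/lpr against 6955, 6267 and 6740 in MRL/mpj libraries. The MRL/lpr libraries were the lower ones without overlap. The log2 fold change of -0.22 (SE 0.07, 95% confidence interval -0.38 to -0.05, edgeR adjusted p = 0.0659) missed the threshold. It passed with scaling by library size alone (-0.34, adjusted p = 0.0112), a setting that moved the median log2 fold change of all genes from -0.01 to -0.13, and with limma on FPKM (adjusted p = 0.019), and elsewhere its adjusted p reached up to 1.

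Of the activating CD300 receptors, Cd300ld (ENSMUSG00000034641, chr11:114982274-114989922, minus strand), which pairs with the Fc receptor gamma chain, had 188, 225 and 155 counts in MRL/lpr against 90, 64 and 81 in MRL/mpj libraries. The strains did not overlap. Its log2 fold change was 1.44 (SE 0.25, 95% confidence interval 0.88 to 2.01, edgeR adjusted p = 0.00306), from 4.16 ± 0.554 CPM (SD, n = 3) in MRL/lpr against 1.53 ± 0.237 CPM (SD, n = 3) in MRL/mpj libraries. Cd300lb (ENSMUSG00000063193, chr11:114922781-114934386, minus strand), a DAP12-linked receptor for phosphatidylserine, had 235, 215 and 108 counts in MRL/lpr and 168, 211 and 151 counts in MRL/mpj libraries. These values overlapped, and its log2 fold change of 0.23 (SE 0.29, 95% confidence interval -0.43 to 0.88, edgeR adjusted p = 0.659) did not pass the test.

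Levels of different genes were compared by FPKM, which divides by gene length. In MRL/lpr libraries the order began with Tyrobp at 357 ± 16.6 FPKM (SD, n = 3), Trem2 at 104 ± 9.98 FPKM, Cd300lf at 46.4 ± 4.53 FPKM and Cd300a at 20.2 ± 1.30 FPKM. Trem1 followed at 3.96 ± 0.203 FPKM, and below it Treml2, Cd300ld, Cd300lb and Treml4 lay between 0.86 and 1.63 FPKM, where each overlapped its neighbour. In MRL/mpj libraries Tyrobp at 495 ± 44.0 FPKM and Trem2 at 111 ± 7.13 FPKM again led, but Cd300a at 25.5 ± 0.964 FPKM stood above Cd300lf at 14.9 ± 0.750 FPKM, and Treml2 at 3.77 ± 0.251 FPKM stood above Trem1 at 3.23 ± 0.200 FPKM. The lowest places were taken by Cd300lb at 1.09 ± 0.212 FPKM, Cd300ld at 0.53 ± 0.0854 FPKM and Treml4 at 0.49 ± 0.269 FPKM, of which Cd300ld and Treml4 overlapped.

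**Figure D2:**
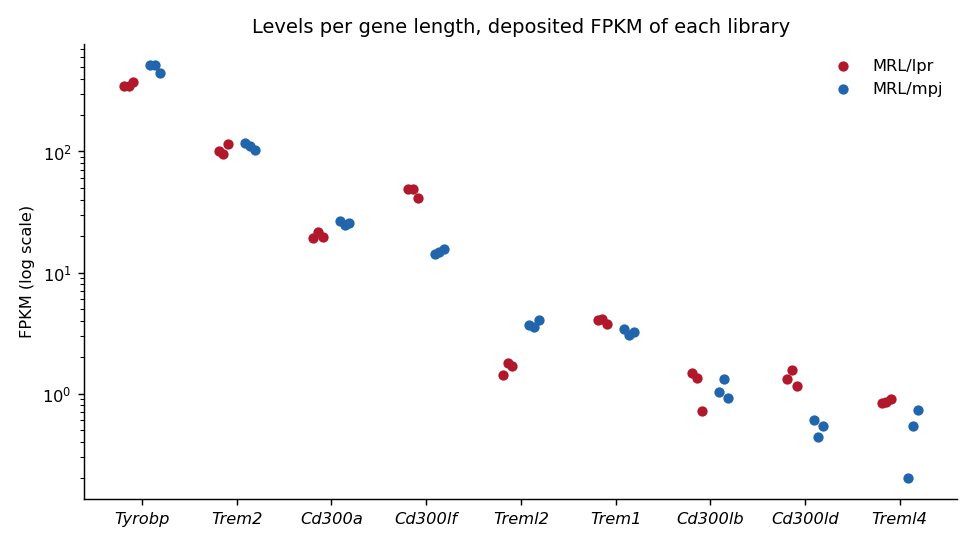
Deposited FPKM on a log axis for the 9 genes in each MRL/lpr library (red) and MRL/mpj library (blue), ordered along the horizontal axis. Cd300lf and Cd300a change places between the strains, with Cd300lf the higher in MRL/lpr and Cd300a the higher in MRL/mpj libraries.

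A pair of ratios within each library, chosen after the values were seen, describe these shifts. Cd300lf over Cd300a was 2.56, 2.25 and 2.09 in the MRL/lpr libraries and 0.534, 0.600 and 0.616 in the MRL/mpj libraries, in FPKM. Tyrobp over Trem2 was 3.40, 3.69 and 3.28 in MRL/lpr and 4.42, 4.67 and 4.29 in MRL/mpj libraries. Neither ratio overlapped between strains. A two-sided exact permutation test gave p = 0.1 for each, the smallest that 10 splits of 3 against 3 libraries allow. Ratios within a library do not depend on how libraries are scaled to each other.

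**Figure D3:**
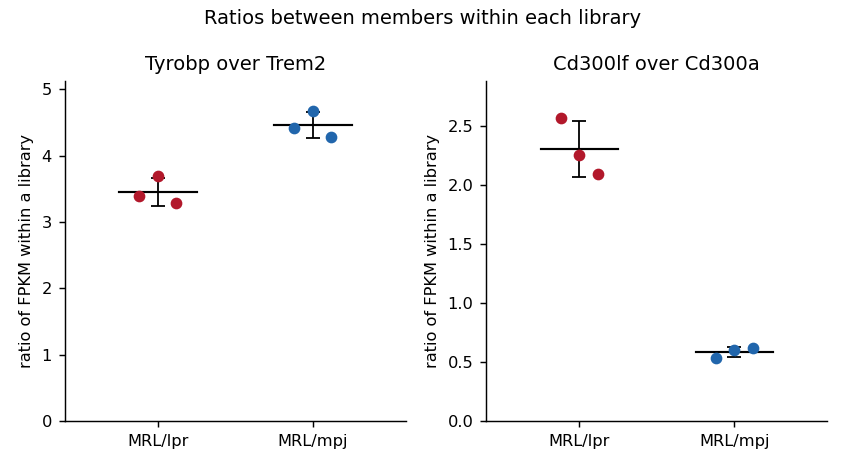
Ratio of FPKM within each library (points, with the mean and SD of each strain, axes from 0) for Tyrobp over Trem2 and for Cd300lf over Cd300a in MRL/lpr (red) and MRL/mpj (blue) libraries. The Cd300lf ratio averages 2.30 in MRL/lpr and 0.583 in MRL/mpj libraries, and the Tyrobp ratio averages 3.45 and 4.46.

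The receptor genes lie in a pair of clusters. On chromosome 17, Trem1, Trem3, Treml4, Treml2, Trem2 and Treml1 follow each other on the plus strand within 134 kb (chr17:48232768-48367176). Treml2 was the only gene of the 6 called there, and Trem2 and Treml4 beside it did not pass the test. Trem3, a DAP12-linked receptor of mice, had a log2 fold change of 0.42 (SE 0.33, edgeR adjusted p = 0.437), and Treml1, a platelet granule receptor, had -0.51 (SE 0.29, adjusted p = 0.279). Of 27 other tested genes within 1 Mb, 11.1% were called, with Guca1b and AI661453 upregulated and Mdfi downregulated, against 8.34% of all tested genes.

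On chromosome 11, 11 Cd300 genes lie within 244 kb (chr11:114890041-115133992), with Cd300a on the plus strand and the other genes on the minus strand. Of 10 TREM or CD300 genes in the table beyond the 9 followed here, 9 were tested, and 4 of these were upregulated and none downregulated, against 4.67% and 3.66% of all tested genes. These 4 were Cd300e, Cd300ld3, Cd300ld4 and Cd300ld5. Cd300e, an activating receptor of monocytes, had 111, 79 and 125 counts in MRL/lpr and 34, 12 and 23 counts in MRL/mpj libraries, a log2 fold change of 2.38 (SE 0.45, edgeR adjusted p = 0.00493). Its groups did not overlap. Beside it, the summed CPM of 10 monocyte markers was 622 to 714 in MRL/lpr and 602 to 625 in MRL/mpj libraries. Fn1 made up most of that sum, at 531 and 497 CPM. By the adjusted p, 5 of the 10 were higher and 1 was lower, against 11.1% and 9.06% of all tested genes. The part of monocytes in the Cd300e difference was not tested.

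Cd300ld5 had 143, 185 and 161 counts in MRL/lpr and 24, 26 and 26 in MRL/mpj libraries, Cd300ld3 had 314, 238 and 262 against 64, 72 and 112, and Cd300ld4 had 163, 246 and 242 against 102, 58 and 34. None of the 3 overlapped between strains. Their log2 fold changes were 2.86 (SE 0.29, edgeR adjusted p = 0.000126), 1.89 (SE 0.27, adjusted p = 0.000971) and 1.93 (SE 0.40, adjusted p = 0.00814). These genes are near copies of each other: 100%, 82.1% and 93.8% of the 50-base words in the annotated transcripts of Cd300ld5, Cd300ld3 and Cd300ld4 also occur in transcripts of other genes, so the split of reads among them is uncertain. The followed genes shared smaller parts, 3.89% in Cd300ld, 3.45% in Cd300a, 2.44% in Cd300lf and 0% in the other 6. Most of the shared Cd300ld words, 3.66% of its total, occur in Cd300lf, and 1.80% of the Cd300lf words occur in Cd300ld. Cd300lf was itself upregulated and had 4038 to 4515 counts in MRL/mpj and 10750 to 13670 in MRL/lpr libraries, far above Cd300ld. How far reads of Cd300lf entered the low counts of Cd300ld was not tested.

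Cd300c2, between Cd300ld and Cd300ld2, was abundant and had 8482, 8745 and 6812 counts in MRL/lpr against 9698, 9276 and 8867 in MRL/mpj libraries. It did not pass the test (log2 fold change -0.04, SE 0.07, edgeR adjusted p = 0.766). Its mean FPKM was 119 in MRL/lpr and 132 in MRL/mpj libraries, above the Trem2 means of 104 and 111. Cd300ld2 had 8 to 41 counts in MRL/lpr and 19 to 33 in MRL/mpj libraries (log2 fold change 0.15, adjusted p = 0.918), and Cd300c, with 0 to 19 and 2 to 9 counts, was not tested. Cd300lg, an endothelial member of the family that lies outside the cluster, had 52 to 69 and 13 to 79 counts and did not pass the test (log2 fold change 0.67, adjusted p = 0.5).

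**Figure D4:**
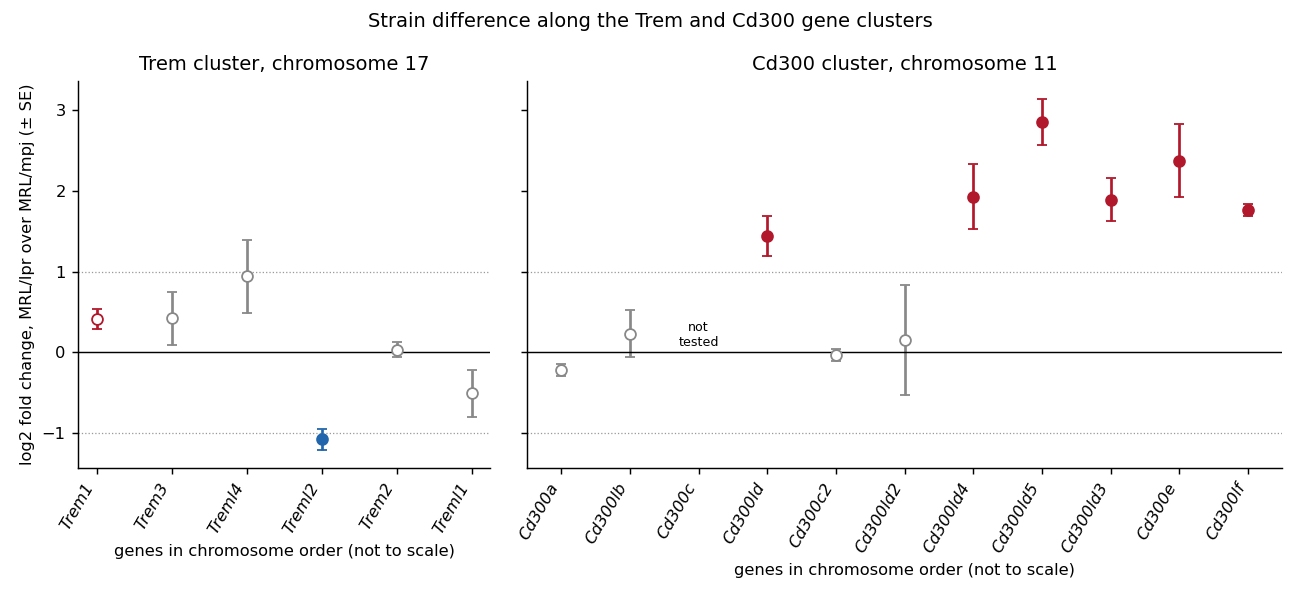
Log2 fold change of MRL/lpr over MRL/mpj (points, with SE as bars) for the genes of the Trem cluster and of the Cd300 cluster, in chromosome order and not to scale; filled points were called, open points were not, and coloured points had an adjusted p under 0.05. Trem cluster points scatter on both sides of 0 with Treml2 at -1.09, and 6 Cd300 genes lie above 1, from Cd300ld at 1.44 to Cd300ld5 at 2.86.

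Cd300lf lies within the span of Rab37 on the opposite strand, with which it shares 0 exon bases in the annotation. Rab37 was also upregulated, from 1.53 CPM in MRL/mpj to 4.50 CPM in MRL/lpr libraries (log2 fold change 1.56, SE 0.25, edgeR adjusted p = 0.0021). The library kit marks strand, but whether the counting used it is not given in the sources used here. The count of Cd300lf exceeded that of Rab37 by far in both strains. Among 51 other tested genes within 1 Mb of the Cd300 cluster, 5.88% were called, namely Rab37 upwards and Gm11703 and Gprc5c downwards, with a median log2 fold change of 0.02. Around Tyrobp, 6.85% of 73 neighbours were called, including Nfkbid at a log2 fold change of 1.10, and the median was -0.02.

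Of 15 other adaptors and DAP12-linked receptors, 12 were tested, and 5 were upregulated and none downregulated, against 4.67% and 3.66% of all tested genes. The median log2 fold change was 1.46, against -0.01 over all tested genes. The activating paired receptors Pilrb1 (399, 361 and 431 counts in MRL/lpr against 29, 47 and 52 in MRL/mpj libraries) and Pilrb2 (385, 421 and 358 against 14, 44 and 59) had log2 fold changes of 3.40 (SE 0.27, edgeR adjusted p = 2.8e-05) and 3.49 (SE 0.42, adjusted p = 0.000445). Sirpb1b, of the signal-regulatory protein beta group, had 67, 95 and 56 counts against 8, 15 and 9 (log2 fold change 2.91, SE 0.48, adjusted p = 0.00233). Its relative Sirpb1c reached 1.93 (SE 0.52, adjusted p = 0.0271) but missed the threshold on leaving out MRL/lpr replicate 1 (adjusted p = 0.129), MRL/lpr replicate 3 (0.0526), MRL/mpj replicate 1 (0.0951), MRL/mpj replicate 2 (0.0756) or MRL/mpj replicate 3 (0.0623). Its adjusted p ran from 0.00883 to 0.334 over the alternatives. Words shared between Pilrb1 and Pilrb2, or between Sirpb1b and Sirpb1c, were not counted, so the split of reads within each pair was not tested.

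Cd200r4 had 52, 41 and 18 counts in MRL/lpr libraries and 0 in each MRL/mpj library. With each MRL/mpj library set to 3 counts, it was 13.7-fold higher in MRL/lpr libraries. Low counts piled up at 4 rather than 3, so this fold is not a strict lower bound. The median of the list is 1.46 with this gene at that value as well. With a minimum of 50 counts in 3 libraries, 3 genes of the list were higher in place of 5. The abundant members did not pass the test. Fcer1g, the Fc receptor gamma chain, had 142 ± 12.8 CPM (SD, n = 3) in MRL/lpr and 126 ± 4.27 CPM (SD, n = 3) in MRL/mpj libraries (log2 fold change 0.18, SE 0.08, edgeR adjusted p = 0.17).

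Downstream of ITAM receptors, 27 signalling genes were tested, of which 2 were upregulated and none downregulated, and 9 were higher and none lower by the adjusted p alone, with a median log2 fold change of 0.11. Over all tested genes, 8.34% were called and 11.1% were higher by the adjusted p. Lat2, a scaffold that gathers signalling proteins in myeloid cells, stood at 89.5 ± 1.93 CPM (SD, n = 3) in MRL/lpr and 34.9 ± 5.70 CPM (SD, n = 3) in MRL/mpj libraries (log2 fold change 1.36, SE 0.11, edgeR adjusted p = 3.8e-05). Its T-cell counterpart Lat was rare, at 2.59 and 0.854 CPM (log2 fold change 1.6, SE 0.30, adjusted p = 0.00477). Syk, the kinase that binds the phosphorylated ITAM, was higher by less than the fold minimum (log2 fold change 0.38, SE 0.06, adjusted p = 0.00163). Plcg2, the phospholipase activated further on, did not pass the test (log2 fold change 0.21, SE 0.08, adjusted p = 0.104). Without MRL/mpj replicate 3, 1 gene of the list was lower in place of none, and with glmTreat 1 was higher in place of 9.

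On the ITIM side, 13 genes of phosphatases and other restraining proteins were tested, of which 1 was upregulated and none downregulated, and 3 were higher and 2 lower by the adjusted p, with a median of 0.18, against 8.34% called, 11.1% higher and 9.06% lower over all tested genes. The upregulated gene was Dok2, an adaptor that restrains tyrosine kinase signalling, at 3.90 ± 0.505 CPM (SD, n = 3) in MRL/lpr and 1.31 ± 0.346 CPM (SD, n = 3) in MRL/mpj libraries (log2 fold change 1.57, SE 0.29, edgeR adjusted p = 0.00423). Ptpn6, the phosphatase SHP-1, and Inpp5d, the phosphatase SHIP-1, did not pass the test, with log2 fold changes of -0.11 (SE 0.07, adjusted p = 0.321) and 0.18 (SE 0.06, adjusted p = 0.0537). With glmTreat none of the 13 passed in either direction.

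Among 8 ligands and sheddases of TREM receptors, 1 gene was downregulated and none upregulated, against 3.66% and 4.67% of all tested genes. By the adjusted p, 2 were higher and 3 lower, against 11.1% and 9.06% of all tested genes, with a median of -0.08. Apoe, whose product is a ligand of TREM2, fell from 1390 ± 208 CPM (SD, n = 3) in MRL/mpj to 498 ± 90.1 CPM (SD, n = 3) in MRL/lpr libraries (log2 fold change -1.48, SE 0.16, edgeR adjusted p = 0.000783). Pglyrp1, whose product is a ligand of TREM1, was higher by less than the fold minimum (log2 fold change 0.72, SE 0.18, adjusted p = 0.0242). Adam10 and Adam17, proteases that shed TREM2, had -0.13 (SE 0.23) and -0.02 (SE 0.19) and did not pass the test. For each of them 1 library stood apart from its strain. Adam10 had 364, 396 and 213 CPM in MRL/lpr libraries, and Adam17 had 162, 264 and 265 CPM in MRL/mpj libraries. The genes higher by the adjusted p numbered 1 in place of 2 without MRL/mpj replicate 2, without MRL/mpj replicate 3, with the replicate block and with limma on FPKM, and 0 with glmTreat.

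Of 20 genes of disease-associated microglia, a state whose later stage is known to need TREM2, 1 was upregulated and 4 were downregulated. Over all tested genes these shares were 4.67% and 3.66%. By the adjusted p, 6 were higher and 8 lower, against 11.1% and 9.06% of all tested genes, with a median log2 fold change of -0.24. Itgax had -1.72 (SE 0.09), Apoe -1.48, Cd9 -1.21 (SE 0.07) and Cd63 -1.13 (SE 0.08), and Clec7a, a receptor for fungal glucan, had 1.78 (SE 0.16), while Trem2 itself had 0.03. The genes lower by the adjusted p numbered 5 in place of 8 without MRL/lpr replicate 2, without MRL/mpj replicate 1 or without MRL/mpj replicate 2, and 2 with glmTreat.

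**Figure D5:**
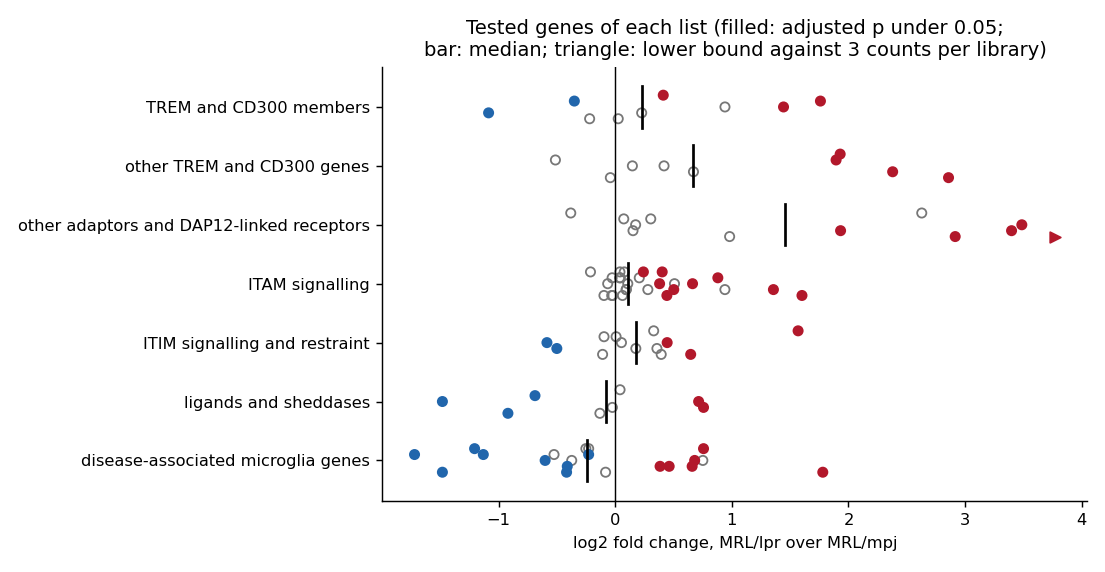
Log2 fold change of MRL/lpr over MRL/mpj for the tested genes of 7 lists (1 point per gene). Filled points have an adjusted p under 0.05, red above and blue below 0. The vertical bar is the list's median, and the triangle is Cd200r4 with each MRL/mpj library set to 3 counts. Medians run from -0.24 for the genes of disease-associated microglia to 1.46 for the other adaptors and DAP12-linked receptors, and the 9 followed genes spread from -1.09 to 1.76.

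Markers of the cells that a CD11b selection can hold are given here because several receptors are also made by them. The 12 microglia markers summed to 24448 to 27344 CPM in MRL/lpr and 28869 to 29385 CPM in MRL/mpj libraries. By the adjusted p, 1 was higher and 4 were lower, where 11.1% and 9.06% of all tested genes were. The highest of them, Csf1r, did not pass the test (log2 fold change 0.07, adjusted p = 0.694), and Tmem119 was at 2403 and 2487 CPM. Markers of neutrophils, cells known to express Trem1, summed to 1518 to 1703 CPM in MRL/lpr and 1479 to 1514 CPM in MRL/mpj libraries, with 4 of 12 higher and none lower. Csf3r made up much of that sum, at 783 and 867 CPM.

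Of 8 nonclassical monocyte markers, 4 were higher and 4 lower by the adjusted p, against 11.1% and 9.06% of all tested genes. Their sums were 1728 to 2026 CPM in MRL/lpr and 1553 to 1588 CPM in MRL/mpj libraries, and Nr4a1 was the most abundant, at 1407 and 703 CPM. Of 10 monocyte markers, 5 were higher and 1 was lower, and Fn1 was the most abundant. Dendritic cell markers summed to 104 to 111 CPM in MRL/lpr and 60.6 to 68.8 CPM in MRL/mpj libraries, with 3 of 10 higher, none lower, and Bst2 the most abundant. Border macrophage markers summed to 61.2 to 68.1 CPM and 59.98 to 69.7 CPM, with 1 of 10 higher and 2 lower, and Mrc1 was the most abundant.

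Lymphocyte markers were low. T cell markers summed to 18.0 to 26.9 CPM in MRL/lpr and 4.58 to 5.10 CPM in MRL/mpj libraries. By the adjusted p, 7 of the 8 were higher, led by Lck, where 11.1% of all tested genes were. NK cell markers summed to 13.3 to 14.6 CPM and 3.44 to 4.88 CPM, with 4 of 7 tested higher, led by Gzma. B cell markers summed to 9.54 to 11.4 CPM and 8.84 to 10.04 CPM, with none of 5 tested passing, Cr2 at 0 in all libraries and Cd79b the most abundant. Mast cell and basophil markers summed to 23.1 to 26.01 CPM and 19.4 to 21.4 CPM, nearly all from Gata2, with 1 of 3 tested higher. The part of these cells in the receptor differences was not tested.

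The genes whose levels ran most like each receptor were taken by Pearson's r of log2 CPM over the 6 libraries, as a description. With 3 libraries on each side, any large strain difference gives a high r, so 808 genes exceeded 0.95 with Cd300lf and 577 with Cd300ld. Closest to Cd300lf were Gbp7 (r = 0.9997), Phlda1 and Lrba, and closest to Cd300ld were Il1rl2 (r = 0.998), Bahcc1 and Trem1. Lair1 (r = 0.998) and Sec14l2 were among the closest to Treml2. For Tyrobp they were Jagn1 (r = 0.997), Nceh1 and Thrsp, and 90 genes exceeded 0.95. For Trem2, whose level did not separate the strains, they were Mpdu1 (r = 0.992), Spg21 and Rps19, and 30 genes exceeded 0.95. Trem1 ran closest to Bahcc1 (r = 0.998), H2-K2 and Gnl1, and Cd300lb to Ube2f (r = 0.986), Nup54 and Mark3. Among the closest to Cd300a were Filip1 (r = 0.989) and Gpbp1l1, and among the closest to Treml4 were Mrps18b (r = 0.993) and Pip5k1c.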

How the data were processed

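Gene expression was measured by RNA-seq in 6 libraries, 3 per strain. Unnormalized counts and FPKM of each library were deposited by the authors. The submitters' processing notes name cutadapt 1.9.3, HISAT2 2.0.4, Cuffdiff 2.2.1, Cufflinks and GRCm38, and the study's methods add DESeq2; the counting tool and annotation are not given in the sources used here. Purification of mRNA is given in the methods, and removal of ribosomal RNA in the labels. Symbols and coordinates were taken from GENCODE M21 (GRCm38; 55141 of 55401 identifiers matched), and promoters from RefSeq.

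Counts were tested with edgeR 4.0.16 in R 4.3.3: filterByExpr (minimum count 10, minimum total 15), TMM, the robust quasi-likelihood test and Benjamini-Hochberg adjustment over 19554 genes. Calls needed |log2FC|≥1 with an adjusted p under 0.05. The steps were tested on simulated data. The alternatives used DESeq2 1.42.0, other scalings and filters, limma 3.58.1 on log2(FPKM + 0.1), glmTreat, a replicate block, and leaving out single libraries. The members and lists were chosen with earlier results of these data known. Besides the members, other TREM or CD300 genes over 3 counts were named, genes called in each list, Hcst, Fcer1g, Syk, Plcg2, Ptpn6, Inpp5d, up to 3 genes most like each member with a mean of at least 10 CPM (some of these are not reported here), and each marker list's highest marker; neighbours within 1 Mb and other genes were named after their values were seen.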

Additional observations from a re-analysis of the deposited data

How the results depend on the processing

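In 17 alternatives, Cd300lf kept its direction and its side of the thresholds, and Treml2 and Cd300ld kept the adjusted p threshold in 16 each. The exception was glmTreat, which tests against the fold minimum itself and called 616 genes (379 up and 237 down) in place of 1630, and 1 of the 9 members in place of 3, with 1 higher and 0 lower in place of 3 and 2. Members lower by the adjusted p numbered 1 with the replicate block and 1 to 2 on leaving out each library, and members called numbered 2 to 3. Libraries of the same number did not deviate together (r from -0.04 to -0.02). So few correlations cannot show whether such libraries shared a batch, and the labels state no pairing. With the replicate block Tyrobp had an edgeR adjusted p of 0.0624, Trem1 0.0995 and Sirpb1c 0.0847, and 1422 genes were called. Scaling by library size alone gave 766 genes up and 932 down, in place of 914 and 716. The log2 fold change of Trem2 turned to -0.10 with library size alone and -0.10 with limma on FPKM, and ran from -0.0776 to 0.0968 on leaving out each library, below 0 without replicate 3 of either strain. On leaving out each library, that of Cd300c2 ran from -0.0863 to 0.0165 (above 0 without MRL/lpr replicate 3) and that of Cd300ld2 from -0.45 (without MRL/lpr replicate 1) to 0.54, with -0.12 under limma on FPKM and -0.00902 with the replicate block. Cd300e, Cd300ld4, Cd63, Lat, Dok2, Apoe and Syk missed the adjusted p threshold under glmTreat and in no other alternative. The cause was not tested. Counts at or under about 100, as for Treml4, limit what could be shown.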
